A study of Mus musculus with 22 samples.

Results

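The neurofilament and axonal microtubule genes are 10 genes that build the internal skeleton of neurons and anchor the axon membrane to it. They are Nefl, Nefm, Nefh and Ina, Map1a, Map1b, Map2 and Mapt, and Cntnap1 and Ank2, taken by gene symbol from 15297 genes with a single symbol in the deposited table. Together they hold 143 of the 95410 features with a single symbol, each feature being a stretch of RNA 5′ ends to which the authors gave a position and a class. The mice were C57BL/6 males of 16 to 20 weeks, either BERKO, which lack estrogen receptor beta (encoded by Esr2), or wild type (WT), and the tissue was primary motor cortex (M1). A right and a left biopsy were taken by needle puncture from each of 5 BERKO and 6 WT mice, 22 biopsies in all, and 10 ng of RNA from each was sequenced by STRT, which tags the 5′ end of each RNA copied. Right and left biopsies of a mouse were matched here by the number in their labels. Per the labels 1 BERKO sample was taken out as an outlier, and BERKO replicate 1 was not analysed here. A needle biopsy is bulk tissue, in which fewer cells of a type and less RNA per cell cannot be told apart.

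Neurofilaments are the intermediate filaments of mature axons, assembled from a light, a medium and a heavy chain together with alpha-internexin, and their content is known to set axon calibre in large projection neurons. Microtubule-associated proteins bind along microtubules and steady or space them, with tau enriched in axons and Map2 in dendrites. The membrane partners tie this skeleton to adhesion molecules and channels, at the paranode beside each node of Ranvier in the case of Cntnap1.

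Gene reads per mouse, the sum of both sides, were 1339843 ± 239724 in BERKO (968219 to 1626675, SD, n = 5) and 2078150 ± 527400 in WT (1353208 to 2722667, SD, n = 6). Esr2 itself had 6 and 4 reads in the left biopsies of BERKO replicates 3 and 5, all in gene body features, against 3 reads in the right biopsy of WT replicate 1, all in promoter features. No Esr2 read was found in 19 biopsies, whose depth puts the limit of a count of 0 at 1.96 to 6.42 CPM (a gene's reads scaled to a fixed total of gene reads), so these reads do not check the genotype labels. A principal component analysis of 5525 genes set 3 WT biopsies apart from the rest on component 1 (15.0% of variance): both biopsies of WT replicate 1, right at -37.9 and left at -46.2, and the left one of WT replicate 2 at -40.7. The remaining 19 lay between -9.58 and 18.3 on component 1. On component 2 the left biopsies of WT replicate 6, at -42.9, and of BERKO replicate 4, at -25.8, lay lowest, and all others lay between -7.99 and 17.0. By the well codes in the column names, BERKO biopsies lay in rows D to F of the plate and WT biopsies in rows A to C, with right and left biopsies in separate rows, so effects of plate row and of genotype or side cannot be told apart. The tissue carried the markers of neurons: the summed level of 6 of 6 pan-neuronal markers was 6718 to 8389 CPM in BERKO mice and 4883 to 7163 CPM in WT mice, with none at 0 in any biopsy.

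The 10 genes differed in where their 5′ ends lay. Features upstream of or in the 5′ UTR are called promoter features here, and those in coding sequence, 3′ UTR or intron gene body features. Nefl, the neurofilament light chain, had 25037 reads, of which 99.8% fell in one upstream feature on the plus strand of chromosome 14 at 68701920 (mm9, as are all feature positions). Nefm, the medium chain on the minus strand of the same chromosome, had 4547 reads, with 55.1% in the gene body and 44.9% in a 5′ UTR feature at 68742904. Nefh, the heavy chain whose long tail carries many phosphorylation sites, had 859 reads in 7 features of chromosome 11, all of them in the gene body. Ina, alpha-internexin, had 98.9% of its 1794 reads in one coding feature of chromosome 19 at 47089867 and 0.39% upstream.

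Among the microtubule-binding members, Mapt, which encodes tau, had 73.4% of its 17138 reads in a 5′ UTR feature of chromosome 11 at 104092792 and 25.8% in a 3′ UTR feature at 104190983. Map1b, a large protein of growing axons, had 56.1% of 22625 reads in a 5′ UTR feature of chromosome 13 at 100286501, minus strand, and 43.9% in gene body features. Among these a coding feature at 100204680 alone held 19.3% of all Map1b reads. Map1a, its adult relative, showed the opposite balance, with 75.6% of 12959 reads in the gene body and 24.4% in promoter features of chromosome 2. Map2, the dendritic protein, had 51.9% of 6654 reads in the gene body and 48.1% in promoter features of chromosome 1. Cntnap1, the paranodal adhesion protein Caspr, had 80.3% of 1563 reads in an upstream feature of chromosome 11 at 101037318. Ank2, ankyrin-B, the adaptor between membrane proteins and spectrin, had 87.8% of 5102 reads in the gene body and 12.2% in promoter features. One intronic feature of chromosome 3 at 126649532 held 47.4% of all Ank2 reads. No transcript of another gene matched a member's transcripts over 80 or more bases at 95% identity or more, in the search of the GENCODE vM21 transcripts.

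Map1b, Map1a and Ina are shown by sequence because their reads divide between start and gene body in 3 different ways. RefSeq's promoter table (GRCm38.p6, a build other than that of the features, so the 2 sets of positions were not joined) matched 5 of the 10 members. The lines give the 250 bases before the annotated start, 5′ to 3′ on the gene's strand, with capitals for GGGCGG (or CCGCCC), the letters Sp1 is known to bind, and for TATAAA (or TTTATA), the TATA box. The windows are chr13:99516603-99516852 on the minus strand for Map1b, chr2:121289352-121289601 on the plus strand for Map1a and chr19:47014431-47014680 on the plus strand for Ina.
Map1b: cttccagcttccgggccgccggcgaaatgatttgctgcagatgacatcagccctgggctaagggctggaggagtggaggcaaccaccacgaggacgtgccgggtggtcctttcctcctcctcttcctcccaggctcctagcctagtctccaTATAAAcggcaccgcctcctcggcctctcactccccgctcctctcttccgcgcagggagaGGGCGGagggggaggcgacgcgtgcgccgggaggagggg
Map1a: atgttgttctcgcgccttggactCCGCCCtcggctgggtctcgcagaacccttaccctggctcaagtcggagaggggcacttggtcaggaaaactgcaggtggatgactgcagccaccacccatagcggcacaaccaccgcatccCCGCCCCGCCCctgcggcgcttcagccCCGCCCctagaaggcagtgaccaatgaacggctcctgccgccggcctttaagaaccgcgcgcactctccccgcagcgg
Ina: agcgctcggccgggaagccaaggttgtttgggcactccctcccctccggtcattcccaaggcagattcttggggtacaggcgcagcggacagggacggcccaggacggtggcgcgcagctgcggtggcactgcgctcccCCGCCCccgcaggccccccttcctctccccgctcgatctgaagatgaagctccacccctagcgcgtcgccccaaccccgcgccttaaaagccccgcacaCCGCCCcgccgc
The Map1b window held 1 TATAAA and 1 GGGCGG, the Map1a window 4 GGGCGG, of which 2 overlap, and the Ina window 2 GGGCGG. On either strand GGGCGG stood in 32.7% and TATAAA in 12.4% of all 32851 promoter windows of that length. The half-site of an estrogen response element, AGGTCA (or TGACCT), stood in 14.0% of all windows. It was found in none of the 8 windows of the 5 matched members. GC content was 66.4% in the Map1b, 66.0% in the Map1a and 70.8% in the Ina window, with a median of 52.4% over all windows.

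The comparison of BERKO with WT asked whether these genes differ in motor cortex that lacks estrogen receptor beta. None of the 10 passed the threshold of an adjusted p of 0.05 (edgeR quasi-likelihood test, Benjamini-Hochberg over 9025 genes), where 0.0776% of all genes tested did. All 10 had positive log2 fold changes, between 0.17 and 0.56 with a median of 0.23, while the median over all genes was -0.01 and 49.2% of genes were positive. The members were chosen with earlier results of these data known, so this contrast is not an independent one. Unadjusted p was under 0.05 for 2 of the 10, against 9.92% of all genes. In no member were the genotypes without overlap, which held for 1.33% of all genes. Because reads are counted at 5′ ends and each gene has its own share of captured ends, levels below are compared between mice and not between genes.

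Among the neurofilament chains, Nefl stood at 1548, 1301, 1568, 1383 and 1555 CPM in the 5 BERKO mice, against 893, 1125 and 1951 CPM (lowest, median and highest) in the 6 WT mice. All BERKO mice lay above the WT median and within the WT range, and the log2 fold change was 0.21 ± 0.15 (SE, adjusted p = 0.665). The BERKO mice were also closer together, with a coefficient of variation of 8.26% against 30.1% in WT; that difference in spread was not tested.

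Nefm was at 271, 286, 295, 406 and 249.3 CPM in BERKO mice, against 47.3, 248.7 and 323 CPM (lowest, median and highest) in WT mice. Again every BERKO mouse exceeded the WT median, and 1 exceeded all WT mice. Means were 302 ± 61.1 CPM in BERKO and 221 ± 106 CPM in WT (SD, n = 5 and 6), a log2 fold change of 0.45 ± 0.41 (SE, adjusted p = 0.763). In the 3 WT biopsies that stand apart Nefm was 44.8 to 51.4 CPM, below each of the other 9 WT biopsies. Those 9 were themselves widely spread, at 71.2 to 524 CPM, the highest being the left biopsy of WT replicate 6, which lay lowest on component 2. Without the 3, and with that biopsy kept, the log2 fold change of Nefm was 0.14 ± 0.18 (SE, adjusted p = 0.913). It was 0.57 without WT replicate 6 and all other mice kept.

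Nefh had the fewest reads of the 10, with 38.8, 36.4, 58.2, 90.3 and 45.7 CPM in BERKO mice and 21.5, 41.0 and 63.6 CPM (lowest, median and highest) in WT mice. The ranges overlapped, with 3 of 5 BERKO mice above the WT median, and the log2 fold change was 0.37 ± 0.30 (SE, adjusted p = 0.703). It was 0.13 ± 0.29 without the 3 WT libraries. Ina had 94.4, 116, 82.7, 101 and 125 CPM in BERKO mice and 55.1, 87.6 and 117 CPM in WT mice, given in the same way. The genotypes overlapped for most of their range, at a log2 fold change of 0.23 ± 0.20 (SE, adjusted p = 0.742).

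**Figure D1:**
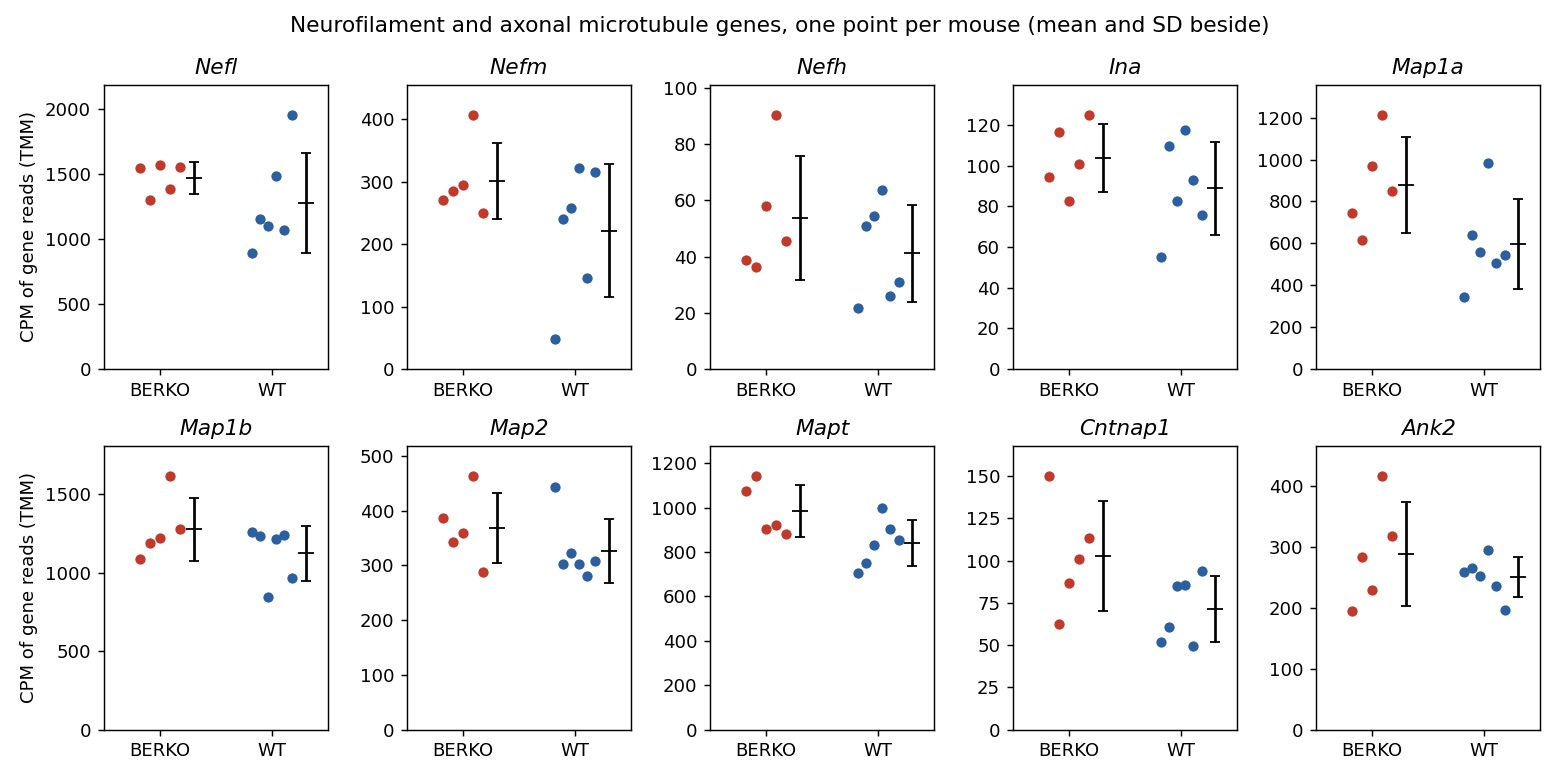
Level of each of the 10 genes in CPM of gene reads after TMM scaling (vertical axis, from 0), with 1 point per mouse, 5 BERKO at the left and 6 WT at the right of each panel, and the mean and SD beside the points. The 2 genotypes overlap in every panel; the lowest Nefm point is WT replicate 1 at 47.3 CPM and the highest Map1a point is BERKO replicate 5 at 1211 CPM.

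Map1a had the highest log2 fold change of the 10. Its levels were 747, 615, 971, 1211 and 850.1 CPM in BERKO mice, against 345, 550.1 and 985 CPM (lowest, median and highest) in WT mice. All 5 BERKO mice exceeded the WT median and 1 exceeded every WT mouse. Means were 879 ± 227 CPM in BERKO and 596 ± 214 CPM in WT (SD, n = 5 and 6), a log2 fold change of 0.56 ± 0.23 (SE, unadjusted p = 0.0296, adjusted p = 0.438, edgeR). It was 0.40 ± 0.19 (adjusted p = 0.620) without the 3 WT libraries and 0.76 without WT replicate 4, the highest WT mouse.

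Map1b was at 1089, 1187, 1218, 1615 and 1276 CPM in BERKO mice and at 843, 1222 and 1259 CPM (lowest, median and highest) in WT mice. Here 2 BERKO mice exceeded all WT mice and 3 lay under the WT median, and the log2 fold change was 0.18 ± 0.13 (SE, adjusted p = 0.648). Map2 had 388, 342, 359.8, 463 and 288 CPM in BERKO mice and 281, 305 and 444 CPM in WT mice, a log2 fold change of 0.17 ± 0.15 (SE, adjusted p = 0.738). Its WT maximum was replicate 1, and without the 3 WT libraries the log2 fold change was 0.31 ± 0.14 (adjusted p = 0.597). Mapt had 1076, 1142, 905, 921 and 881 CPM in BERKO mice and 706, 841 and 999 CPM in WT mice. All BERKO mice were above the WT median of Mapt and 2 above all WT mice, at a log2 fold change of 0.23 ± 0.12 (SE, adjusted p = 0.530).

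Of the membrane partners, Cntnap1 had 150.0, 62.8, 86.5, 101 and 113 CPM in BERKO mice, against 49.3, 73.0 and 94.1 CPM (lowest, median and highest) in WT mice. The 3 highest BERKO mice exceeded every WT mouse, and the log2 fold change was 0.53 ± 0.23 (SE, unadjusted p = 0.0263, adjusted p = 0.429, edgeR). Ank2 had 195, 284, 229.7, 416 and 318 CPM in BERKO mice and 197, 255 and 295 CPM in WT mice. BERKO held both the lowest and the highest mouse of Ank2, at a log2 fold change of 0.20 ± 0.17 (SE, adjusted p = 0.719).

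The positive sign of all 10 was kept under 18 alternative settings, with medians of 0.20 to 0.47 and 0 members past the threshold in each. These settings reuse the same mice or a part of them, so they are not independent of one another. The highest median came with scaling to the spike-in RNA, under which the median of all genes was itself 0.19; Map1a then had a log2 fold change of 0.78 ± 0.20 (SE, adjusted p = 0.0532). Marker lists of the tissue were read beside them. The 6 pan-neuronal markers were all positive, with a median of 0.27 and 0 past the threshold, among them Rbfox3, the nuclear antigen NeuN, at 0.61 ± 0.20 (SE, adjusted p = 0.330). Lists of single neuron types were mixed. Positive were 3 of 6 parvalbumin interneuron, 5 of 8 deep-layer projection neuron, 4 of 4 upper-layer and 2 of 3 striatal markers. For other cells, all 8 astrocyte, 6 pericyte and 5 endothelial markers tested were positive, with 7 of 9 microglial and 5 of 6 meningeal fibroblast markers. Myelin markers, 12 in number, were positive for 10 and negative for 2, with a median of 0.27, none past the threshold, and a summed level of 6476 to 16414 CPM in BERKO mice and 2505 to 14325 CPM in WT mice. Whether these marker lists bear on the values of the 10 genes was not tested.

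The 2 classes of reads were then tested separately, each scaled to its own class. As defined above, a promoter feature lies upstream or in the 5′ UTR, and a gene body feature in coding sequence, 3′ UTR or intron. Over all genes, gene body reads made up 22.9% ± 1.48 of gene reads in BERKO mice and 19.4% ± 1.70 in WT mice (SD, n = 5 and 6). The ranges overlapped, at 21.1 to 24.8% in BERKO and 16.6 to 21.9% in WT, where replicate 4 was highest. Effects of genotype and of plate row on this share cannot be told apart. In promoter features 0 of 8 members tested passed the threshold (edgeR; 0.0728% of all 6867 genes did), 7 were positive and the highest was Cntnap1 at 0.76 ± 0.24 (SE, adjusted p = 0.322). Map1b was the negative one, at -0.09 ± 0.15 (SE, adjusted p = 0.898). In gene body features 0 of 9 passed (edgeR; 0.0205% of 4872 genes did) and 5 were positive, led by Nefm at 0.47 ± 0.47, Map1a at 0.42 ± 0.20 and Map1b at 0.34 ± 0.15 (SE). With the whole library as the scale the gene body median of all genes was 0.29 and 8 of 9 members were positive.

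The share of a gene's own reads in promoter features does not depend on the scale between libraries. For Nefm it was 35.4, 34.9, 36.3, 38.2 and 34.7% in BERKO mice, against 41.2, 49.8 and 66.2% (lowest, median and highest) in WT mice. Every BERKO mouse lay below every WT mouse, and means were 35.9% ± 1.45 in BERKO and 51.8% ± 11.1 in WT (SD, n = 5 and 6). Such a lower share without overlap held for 2% of the 3053 genes with enough reads in both classes, of which Nefm was the only member, and the median difference of the 2 means over these genes was -3.29 percentage points.

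For Map1b the promoter share was 43.2, 46.3, 46.0, 46.6 and 52.3% in BERKO mice, against 47.9, 59.5 and 71.1% (lowest, median and highest) in WT mice, and 1 BERKO mouse lay within the WT range. For Map1a it was 16.6, 18.2, 22.8, 23.7 and 17.2% in BERKO mice, against 17.8, 30.7 and 36.1% in WT mice, with more overlap. Mapt averaged 70.0% ± 5.57 in BERKO and 74.9% ± 3.55 in WT (SD, n = 5 and 6). Mean promoter shares ran the other way in Cntnap1, at 84.0% ± 7.74 in BERKO and 77.7% ± 5.93 in WT, and in Ank2, at 14.7% ± 7.70 and 11.6% ± 2.11 in the same order. In both the difference was smaller than the SD of the BERKO mice and larger than that of the WT mice. For Ank2 the BERKO mice were at 12.5, 8.54, 27.7, 9.60 and 15.0%, against 8.34, 11.8 and 14.6% (lowest, median and highest) in WT mice. Only BERKO replicate 4, at 27.7%, lay far above the WT range. Map2 was at 48.4% ± 6.69 in BERKO and 47.7% ± 4.01 in WT.

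**Figure D2:**
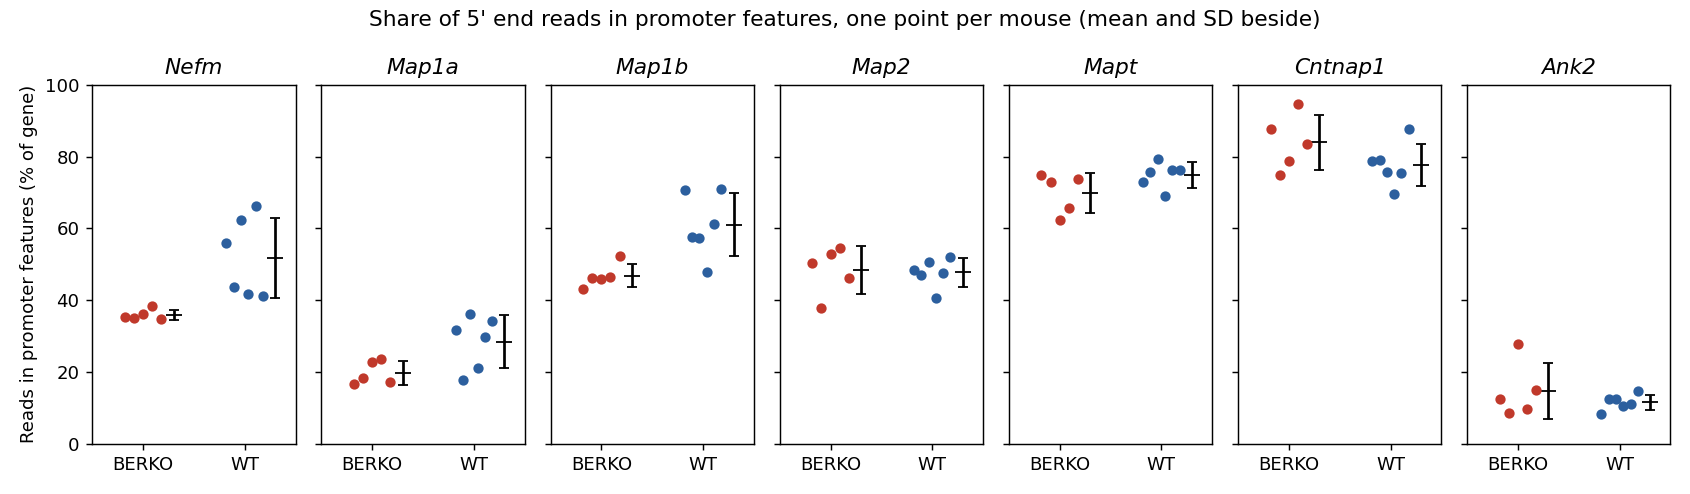
Share of each gene's reads in promoter features (vertical axis, percent, 0 to 100) for the 7 members with 110 or more reads in each class, 1 point per mouse, 5 BERKO left and 6 WT right in each panel, mean and SD beside the points. For Nefm the BERKO points lie at 34.7 to 38.2% and all WT points at 41.2% or above; Map1b and Map1a show a shift of the same direction with overlap.

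Whether the genotype difference itself was unlike between the classes was tested as an interaction with the mouse as a block. No gene passed (edgeR; 0% of 3053 genes, with 409 at an unadjusted p under 0.05, which is 13.4%), while limma-voom passed 27 genes. The log2 fold change in gene body reads exceeded that in promoter reads by 0.94 ± 0.33 in Nefm (SE, adjusted p = 0.285), by 0.85 ± 0.28 in Map1b (adjusted p = 0.284) and by 0.67 ± 0.30 in Map1a (adjusted p = 0.350). Over all genes tested the median of this difference was 0.40 and 76.8% of genes were positive. Mapt was at 0.35 ± 0.26 and Map2 at -0.04 ± 0.28, while Ank2 at -0.30 ± 0.36 and Cntnap1 at -0.65 ± 0.48 were negative (SE). When each class was scaled to its own library size the median over all genes was -0.00, and the values were 0.53 in Nefm, 0.43 in Map1b, 0.26 in Map1a, -0.06 in Mapt, -0.45 in Map2, -0.71 in Ank2 and -1.05 in Cntnap1. Of the 7 members in this test, Map1b alone passed under one of 15 other settings, limma-voom, at 0.83 with an adjusted p of 0.0255.

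The same comparison was made feature by feature. Of the 143 member features, 41 had enough reads for the test at this level and 0 passed (edgeR; 0.107% of 13128 features did). Among the 31 gene body features tested, 26 had a positive log2 fold change with a median of 0.36, and among the 10 promoter features 7 were positive with a median of 0.09. Over all features of genes with a single symbol, 73.6% of 5338 gene body features were positive with a median of 0.34, and 33.6% of 7095 promoter features with a median of -0.15. The gene body features of the members thus lay near the median of their class.

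In Nefm the gene body feature with the clearest separation was a coding one at 68740881, with 73.1, 57.8, 81.9, 94.5 and 53.9 CPM in BERKO mice, against 7.42, 23.8 and 55.4 CPM (lowest, median and highest) in WT mice. Only the lowest BERKO mouse fell under the highest WT mouse, replicate 4. The log2 fold change was 1.42 ± 0.35 (SE, adjusted p = 0.131, edgeR). This feature passed the threshold with DESeq2 (adjusted p = 0.0213), without the filter on low counts (0.00494) and without WT replicate 4 (0.0195). The 5′ UTR feature of Nefm had 95.9, 99.8, 107, 155 and 86.5 CPM in BERKO mice, against 26.5, 117 and 160.4 CPM in WT mice, a log2 fold change of -0.04 ± 0.31 (SE). The genotypes overlapped throughout in this start feature, and the 3′ UTR feature at 68738062 was at 0.06 ± 0.46 (SE).

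In Map1b a coding feature at 100204680, with 19.3% of its reads, had 343, 280.3, 305, 339 and 316 CPM in BERKO mice, against 84.8, 189 and 264 CPM (lowest, median and highest) in WT mice. All BERKO mice exceeded all WT mice here, a lack of overlap that 1.82% of all features tested share in either direction. That share covers both classes and was not taken for gene body features alone, of which 73.6% had positive log2 fold changes. The log2 fold change was 0.76 ± 0.21 (SE, adjusted p = 0.195, edgeR). The 5′ UTR feature of Map1b had 470.5, 549, 560.4, 752 and 667 CPM in BERKO mice, against 485, 697 and 891 CPM in WT mice, a log2 fold change of -0.24 ± 0.15 (SE, adjusted p = 0.560). The 5′ UTR feature and the coding feature of this gene thus had opposite signs. The medians over all features of genes with a single symbol did too, at -0.15 for promoter and 0.34 for gene body features.

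In Map1a a coding feature at 121126026, with 34.1% of its reads, had 381, 225, 439, 338 and 299 CPM in BERKO mice, against 74.9, 154 and 373 CPM (lowest, median and highest) in WT mice. The ranges overlapped through WT replicate 4, and the log2 fold change was 0.84 ± 0.31 (SE, adjusted p = 0.346, edgeR). It passed without WT replicate 4 (log2 fold change 1.15, adjusted p = 0.0257) and without the filter on low counts (0.74, adjusted p = 0.0152). Further gene body features of Map1a were at 0.61 ± 0.29 (coding, 121129055) and 0.56 ± 0.26 (3′ UTR, 121134323), and its 5′ UTR feature at 121121199 was at 0.08 ± 0.23 (SE).

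In Mapt the gene body feature again had the higher value, with a log2 fold change of 0.45 ± 0.16 in the 3′ UTR feature (SE, adjusted p = 0.293) and 0.10 ± 0.13 in the 5′ UTR feature (adjusted p = 0.817). Cntnap1 differed from these, since its upstream feature was at 0.62 ± 0.26 (SE, adjusted p = 0.363) and its 3′ UTR feature at 101051672 was at 0.02 ± 0.43. The single large feature of Nefl was at 0.17 ± 0.15 (SE). The 12 tested features of Nefh, Ina, Map2 and Ank2 that hold 5% or more of their gene's reads ranged from -0.12 to 0.85, with 10 of 12 positive and no adjusted p under 0.521.

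**Figure D3:**
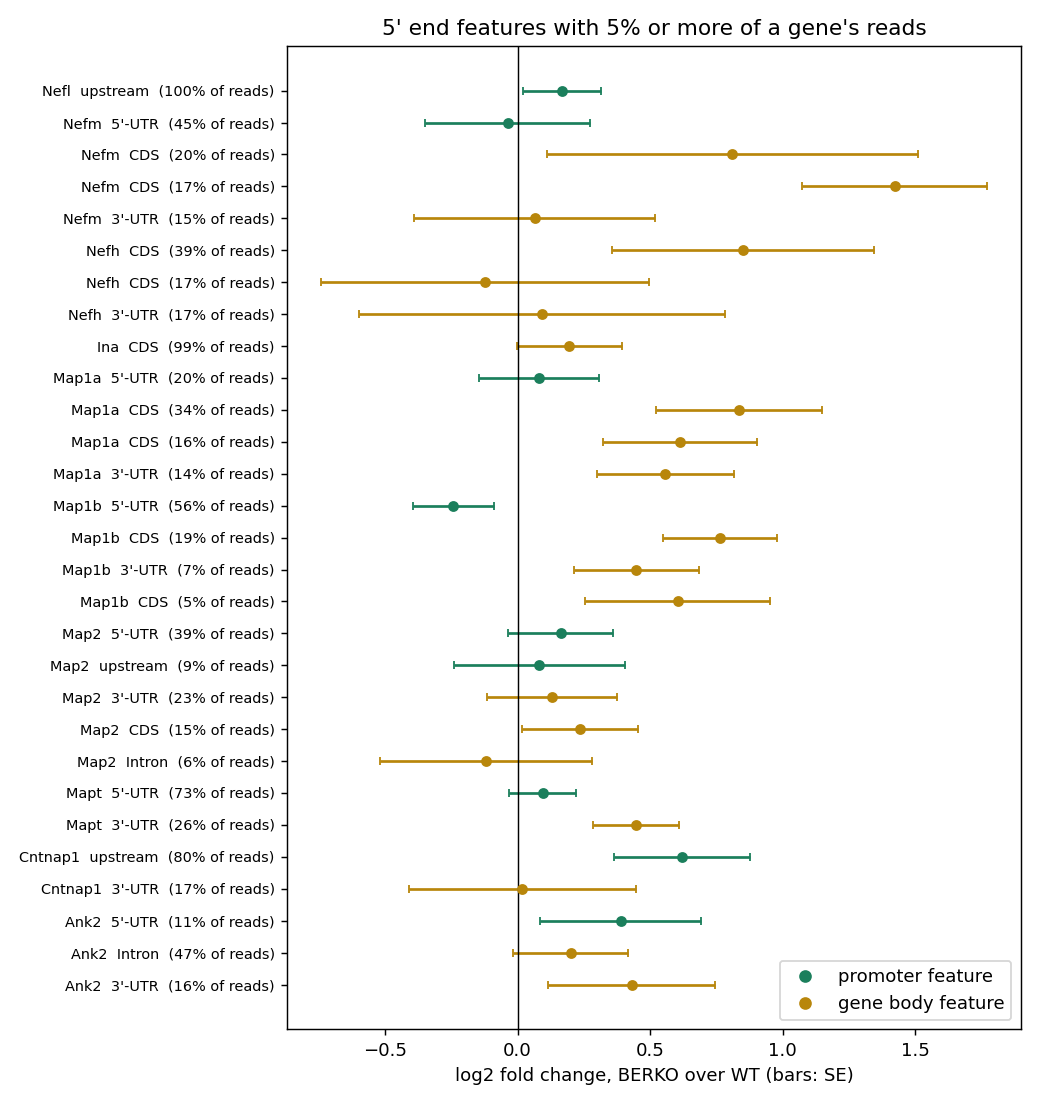
Log2 fold change of BERKO over WT with its SE (horizontal axis) for the 29 tested features that hold 5% or more of their gene's reads, by gene, with promoter features in green and gene body features in ochre. The coding features of Nefm (1.42), Map1a (0.84) and Map1b (0.76) lie furthest right among their genes, and the 5′ UTR features of Nefm (-0.04), Map1a (0.08) and Map1b (-0.24) lie near or left of 0.

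Each side was compared between genotypes in one model of the 22 biopsies. In the right cortex 0 of 10 members passed (edgeR; 0% of 8308 genes did, with 539 at an unadjusted p under 0.05, and DESeq2 passed 4 genes), with 10 positive and values of 0.18 to 0.58. In the left cortex 0 of 10 passed as well (edgeR; 0.012% of genes did), and 9 were positive, a number that ran from 8 to 10 over 16 other settings. Cntnap1 showed the most unequal pair of sides. On the left it had 138, 85.9, 88.4, 179 and 179 CPM in BERKO mice, against 30.0, 62.4 and 93.4 CPM (lowest, median and highest) in WT mice, a log2 fold change of 1.07 ± 0.31 (SE, adjusted p = 0.291, edgeR). On the right it had 162, 43.6, 85.0, 71.9 and 66.1 CPM in BERKO mice, against 53.9, 73.4 and 96.3 CPM in WT mice, a log2 fold change of 0.18 ± 0.31 (SE). BERKO mice thus separated from most WT mice on the left and not on the right. The left biopsy of BERKO replicate 5, at 179 CPM, came from 1 lane with 239058 gene reads, the fewest of the 22 biopsies. The difference of the genotype effect, right minus left, was -1.01 ± 0.40 (SE, unadjusted p = 0.0162, adjusted p = 0.998, edgeR), in a test that no gene passed (0% of 8308, with 272 at an unadjusted p under 0.05 and 0 by DESeq2). Without the 3 WT libraries the left log2 fold change of Cntnap1 was 0.83 ± 0.33 (SE, adjusted p = 0.832).

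Right against left cortex, with the mouse as a block, gave 0 of 10 members past the threshold (edgeR; 0% of 8308 genes did, with 463 at an unadjusted p under 0.05, while DESeq2 passed 11 genes). The log2 fold changes of right over left had a median of 0.02 and were positive in 5 members, or in 4 to 8 under 15 other settings. Mapt had the lowest p: in BERKO mice it was at 1029, 1286, 1081, 977 and 888 CPM on the right, against 1104, 922, 559, 693 and 865 CPM on the left. In WT mice it was at 682, 898 and 1072 CPM (lowest, median and highest) on the right, against 588, 792 and 948 CPM on the left. The right biopsy was the higher one in 4 of 5 BERKO and 3 of 6 WT mice, at a log2 fold change of 0.26 ± 0.12 (SE, unadjusted p = 0.0304, adjusted p = 0.784, edgeR).

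Within groups, Nefm varied from biopsy to biopsy together with Nefh and with Nefl. After centring each of the 4 groups of genotype and side, Pearson's r over the 22 biopsies was 0.78 between Nefm and Nefh and 0.64 between Nefl and Nefm, and 0.28 between Nefl and Nefh. Over the 19 biopsies without the 3 WT libraries these were 0.72, 0.55 and 0.07. Map1a followed Nefh (0.75, and 0.70 over 19) and Nefm (0.73, and 0.58 over 19). Other pairs were Ina with Mapt at 0.58 (0.51 over 19), Map1b with Ank2 at 0.54 (0.59 over 19) and Ina with Map2 at -0.54 (-0.52 over 19). Over all 45 pairs the median r was 0.06. All these values describe points that share a library and its depth, and the 2 biopsies of a mouse share an animal.

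Of 5727 genes with a mean of 20 CPM or more, those most like the mean of centred Nefl, Nefm and Nefh over the 22 biopsies were Ttll7 (r = 0.86), a tubulin polyglutamylase, Satb1 (0.83), a chromatin organiser of interneurons, Scn1a (0.83) and Scn4b (0.82), subunits of voltage-gated sodium channels, and Osbpl1a (0.82), an oxysterol-binding relative. Without the 3 WT libraries these were 0.68, 0.54, 0.55, 0.57 and 0.58 in the same order. Among the other members Map1a stood at rank 19 with 0.77 (0.70 over 19), Cntnap1 was at 0.47 (0.27 over 19), Ina at 0.04 (-0.06), Ank2 at -0.00 (0.16), Mapt at -0.05 (-0.26), Map2 at -0.25 (0.15) and Map1b at -0.31 (-0.15), so that Ina, Ank2 and Map2 changed sign without the 3 WT libraries.

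**Figure D4:**
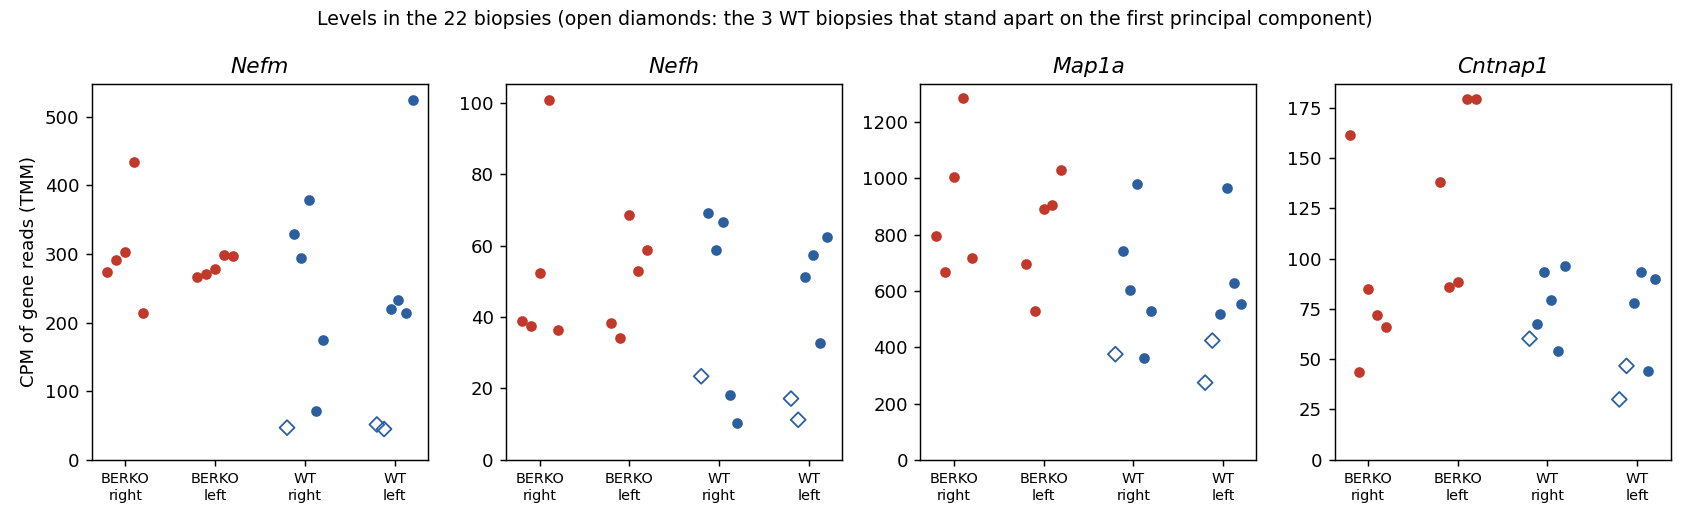
Level of Nefm, Nefh, Map1a and Cntnap1 in CPM of gene reads after TMM scaling (vertical axis, from 0) in each of the 22 biopsies by group (BERKO right, BERKO left, WT right, WT left), with open diamonds for the 3 WT biopsies that stand apart on the first principal component. The diamonds lie at the bottom of the Nefm panel (44.8 to 51.4 CPM), and the left BERKO biopsies of Cntnap1 reach 179 CPM.

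In the 3 WT biopsies that stand apart, the low level was not general to the 10 genes. Map1a was at 274 to 424 CPM in them, and 8 of the other 9 WT biopsies lay above all 3. Nefh was at 11.2 to 23.4 CPM with 7 of 9 above, and Cntnap1 at 30.0 to 60.2 CPM with 7 of 9 above. Map2, by contrast, was at 319 to 494 CPM, and none of the other 9, at 197 to 424 CPM, exceeded all 3. The summed level of 12 myelin markers was 2209 to 3524 CPM in these 3 against 4895 to 19478 CPM in the other 9, that of the pan-neuronal markers 4673 to 5770 against 6187 to 7593 CPM, that of 6 parvalbumin interneuron markers 446 to 479 against 476 to 958 CPM, and that of 10 deep-layer projection neuron markers 1281 to 1456 against 731 to 1364 CPM. Their part in the values of the 10 genes was not tested.

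Genes of the same pathways were read in the comparison of gene totals. Of 14 genes of neurofilament partners and other intermediate filaments, 11 were tested, 0 passed in either direction and 10 had positive log2 fold changes, with a median of 0.16. Klc1, a kinesin light chain, was at 0.46 ± 0.18 (SE, adjusted p = 0.408), Vim, vimentin, at 0.46 ± 0.24 and Kif5a, a kinesin heavy chain that carries neurofilaments, at 0.30 ± 0.18. Of 27 further microtubule-binding genes, 22 were tested, 0 passed, 18 were positive and the median was 0.18. Mapre3, the plus-end protein EB3, averaged 132 ± 45.1 CPM in BERKO and 76.6 ± 10.7 CPM in WT (SD, n = 5 and 6), at 0.78 ± 0.20 (SE, adjusted p = 0.179, edgeR). Camsap1, a minus-end protein, was at 0.75 ± 0.28 and Map7d2, a kinesin recruiter, at 0.49 ± 0.22 (SE).

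Of 29 kinases, phosphatases and partners that act on tau and neurofilaments, 27 were tested, 1 rose, 0 fell, 22 were positive and the median was 0.24. Cdk5r1, which encodes the p35 activator of the kinase Cdk5, rose to 81.2 ± 19.5 CPM in BERKO, against 31.8 ± 14.0 CPM in WT (SD, n = 5 and 6), by 1.35 ± 0.27 (log2, SE, adjusted p = 0.0485, edgeR). That call was lost under 11 of 18 other settings, 8 of them leaving out a single mouse (WT replicates 2, 3, 5 or 6, or BERKO replicates 3, 4, 5 or 6), with adjusted p of 0.0537 to 0.228 where lost and log2 fold changes of 1.17 to 1.60 over all 18. Mark2, a kinase that frees microtubules of their associated proteins, was at 0.78 ± 0.19 (adjusted p = 0.142) and Camk2a at 0.55 ± 0.14 (adjusted p = 0.179). Of 30 genes of the node, paranode and axon initial segment, 28 were tested, 0 passed, 18 were positive and the median was 0.16, with Dlg4 at 0.63 ± 0.22 and Sptbn1, the spectrin that binds ankyrin-B, at 0.36 ± 0.14. Of 17 genes of microtubule severing and axon growth, 13 were tested, 0 passed, 7 were positive and the median was 0.04, with Dpysl2 at 0.61 ± 0.26, Basp1 at 0.45 ± 0.19 and Nav1 at 0.54 ± 0.29.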

How the data were processed

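For each feature of RNA 5′ ends the authors deposited read counts, as whole numbers, and an annotation. Per the submitters' processing notes TopHat2 2.0.12 and Bowtie were used with build mm9; read filters and the drawing of features are not stated. The counts are reads after PCR, so floors (3 counts) cover counting error only. The SEs of log2 fold changes also hold the spread between samples. All 64 columns were matched to the 22 biopsies by genotype, side and a digit read as the mouse number, and lanes were summed (3 per biopsy, 1 for the left biopsy of BERKO replicate 5). The labels do not tie this digit to a mouse in words, so sums per mouse and tests within mice rest on that reading. Features with a single symbol were summed to genes; spike-in and ribosomal features were left out, and 4.88% of endogenous reads lay outside such genes.

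The mouse was the replicate. Tests used edgeR 4.0.16 in R 4.3.3 (two-sided quasi-likelihood test, robust dispersion, TMM scaling, default filter) over the whole table with Benjamini-Hochberg adjustment at 0.05, and SEs were derived from log2 fold change and F. Levels are CPM of gene reads after TMM. Genes in the class test had 110 or more reads in each class. The biological coefficient of variation was 36.7%. Alternatives used limma 3.58.1 and DESeq2 1.42.0. The fits were tested on simulated data. Same-numbered BERKO and WT mice did not deviate together. The members and gene lists were chosen with earlier results of these data known. All members are named, with their features of 5% or more of a gene's reads, and the 3 genes with the smallest p of each pathway list plus any past the threshold. A list gene that this rule takes is not reported here.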

Additional observations from a re-analysis of the deposited data

Results flagged for a closer look

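Of 74 groups of 4 to 10 values examined, 2 held a sample far from the others of its group, and chance gives about 1 in 20. Map2 was at 444 CPM in WT replicate 1, while the other WT mice lay between 281 and 323 CPM. Both biopsies of that mouse are among the 3 WT libraries that stand apart. Nefh was at 101 CPM in the right biopsy of BERKO replicate 5, while the other right BERKO biopsies lay between 36.2 and 52.4 CPM.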

How the results depend on the processing

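No member passed the threshold in gene totals, in promoter or gene body reads or on either side under any setting run. Calls were followed for the members, for Cdk5r1 and for the named features of Nefl, Nefm, Map1a, Map1b, Mapt and Cntnap1. Among these, calls changed for the coding features of Nefm and Map1a, the class difference of Map1b and Cdk5r1, as given in the report. Calls of the other named genes and features under these settings are not given. Genes past the threshold in gene totals, 7 in the main test, were 34 with DESeq2, 45 with spike-in scaling, 14 without the filter, 2 with limma-voom, 15 with biopsies and mouse as a random effect, and 1 to 18 with a mouse left out (1 without BERKO replicate 3, 18 without WT replicate 4). Promoter features gave 5, then 37 with DESeq2, 9 without the filter, 3 with the whole library size, 3 without the 3 WT libraries and 1 to 6 with a mouse left out; gene body features gave 1, then 9, 19 and 0 under the first 3 of these and 0 to 1 with a mouse left out. The right side gave 0, then 5 alone, 4 with DESeq2, 1 without the filter and 0 to 1 with a mouse left out; the left gave 1, then 0 alone, 19 with DESeq2, 4 without the filter, 0 without the 3 WT libraries and 0 to 4 with a mouse left out. Right against left gave 0, then 11 with DESeq2, 9 without the filter and 0 to 3 with a mouse left out. Limma-voom gave 27 genes for the class difference, against 0. Features gave 14, then 112 with DESeq2, 139 without the filter and 8 to 48 with a mouse left out (8 without WT replicate 3 or BERKO replicates 4, 5 or 6, 48 without WT replicate 4).

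Same-numbered BERKO and WT mice correlated by -0.04 to 0.09, with 0 of 5 pairs over 0.1. Of 5 BERKO mice, 1 correlated best with its own number, so no pairing of the genotypes by number was seen. Right and left biopsies of the same number and genotype, centred by group, correlated by -0.17 to 0.45, with 2 of 11 pairs over 0.1. These values do not show that such biopsies come from the same mouse, which was read from the number alone. With the replicate block, mice 2 to 6, genes past the threshold were 17 in totals, 7 in promoter, 5 in gene body features, 8 on the right, 0 on the left and 38 features; the coding features of Nefm (1.28, adjusted p = 0.0217) and Map1a (0.70, adjusted p = 0.0320) passed, and signs turned for promoter reads of Nefm (-0.12), gene body reads of Nefh (-0.0485), the 3′ UTR features of Nefm (-0.16) and Cntnap1 (-0.17) and the 5′ UTR feature of Map1a (-0.0687).

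Without the 3 WT libraries, a setting chosen after seeing the data as was the block for features, signs turned for promoter reads of Nefm (-0.20) and Map1b (0.0073), gene body reads of Nefh (-0.12) and the 3′ UTR features of Nefm (-0.28) and Cntnap1 (-0.12). With the whole library size gene body reads of Ina (0.22), Map2 (0.14) and Ank2 (0.16) turned positive, and with the library size of each class the class difference of Mapt was -0.0595. Without the filter the 3′ UTR features of Nefm (-0.0386) and Cntnap1 (-0.0807) and the 5′ UTR features of Map1a (-0.0224) and Mapt (-0.0054) turned. With a mouse left out, values printed in the report crossed 0 for promoter reads of Nefm (-0.11 to 0.25) and Map1a (-0.015 to 0.35), gene body reads of Nefh (-0.13 to 0.22) and Ina (-0.17 to 0.0112), right-sided Cntnap1 (-0.16 to 0.37), class differences of Map2 (-0.19 to 0.0503) and Ank2 (-0.49 to 0.0253), 3′ UTR features of Cntnap1 (-0.13 to 0.20) and Nefm (-0.25 to 0.22), and 5′ UTR features of Map1a (-0.21 to 0.19) and Nefm (-0.24 to 0.12). None of these values was past the threshold; the cause was not tested.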

Other observations

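Markers of other cells in the biopsies were read beside the 10 genes in the same comparison of BERKO with WT. As given above, upper-layer neuron markers were positive for 4 of 4, microglial markers for 7 of 9, meningeal fibroblast markers for 5 of 6 and striatal neuron markers for 2 of 3. One peripheral blood marker was tested and was positive. Summed microglial markers were at 838 to 1030 CPM in BERKO mice and 486 to 837 CPM in WT mice. Summed striatal markers were at 177 to 331 CPM in BERKO mice and 58.6 to 255 CPM in WT mice.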
